A study of Arabidopsis thaliana with 6 samples.

Results

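This account describes 59 probe sets of an Affymetrix Arabidopsis array, groups of short DNA probes that each report 1 transcript or a few, whose signal was moderately lower in myb3r1 myb3r4 double-mutant seedlings than in wild type in each of 3 experimental sets. They were chosen by the measured differences themselves. A probe set was kept when it was not an array control or a plastid gene, when its mean level over all 6 arrays was above 0, when the mean of its 3 differences (mutant minus wild type of the same set, log2) was at most -0.6, and when each difference was at most -0.3. A difference of -0.6 is a level 1.52-fold lower, and one of -0.3 a level 1.23-fold lower. Of 22746 probe sets that are not controls, 11291 had a mean level above 0 and were not plastid genes, and 66 of these (0.585%) met both thresholds. The rule names 13 genes to leave out, and 7 of the 66 probe sets belonged to them (AT1G31335, AT3G02640, AT5G55180, GH9B13, AT4G20430, ICL and AT5G16250), which left 59. Another 2 probe sets past the thresholds, of the plastid genes ndhH and psbB, were barred as well.

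RNA came from whole seedlings of Arabidopsis thaliana, cultivar Col-0, at 9 days of age. One group was wild type and the other carried the myb3r1 and myb3r4 mutations together, whose alleles the labels do not name. All seedlings grew untreated in continuous light at 22 degrees Celsius on half-strength MS agar with 2% sucrose. Each set held 1 array of each genotype, 3 per genotype, and nothing says whether the sets were separate cultures, so the spread between them may be technical.

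MYB3R1 and MYB3R4 are MYB transcription factors. They are known for switching on genes of mitosis and cytokinesis in dividing plant cells, through a short promoter motif called the mitosis-specific activator element, and MYB3R1 is also known as a repressor outside that window. In whole seedlings, dividing cells sit mainly in the shoot and root tips and in young leaves. A lower signal in such material can mean fewer cells of a type or less RNA per cell, and these cannot be told apart here.

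Every level below is a log2 signal set against its own array's median, so 0 is the level of a typical probe set, and every difference is mutant minus wild type within a set. The arrays held signals of shoot and root: the Rubisco activase gene RCA had wild-type levels of 6.57, 6.33 and 6.47 in sets 1 to 3, and the root beta-glucosidase gene PYK10 had 6.31, 5.68 and 5.64. On this scale, all 3 shoot markers with a named probe set above level 0 were higher in the mutant in every set (median difference 0.33). So were 3 of 4 root markers (median of the 4 0.37), with the lectin gene JAL33 at 1.03. The other, AT5G17820, had differences of -0.88, 0.76 and -0.30. Some of the rises were small, at 0.083 for NAI2 in set 1, 0.10 for PSAE-1 in set 2 and 0.11 for PYK10 in set 3. These counts were not recomputed under other scalings. The part of these markers in the members' values was not tested. None of 5 MYB3R genes listed had a named probe set, so the mutated genes were not analysed here. Set 1 stood apart from the others. The median level of the 12 Bacillus spike controls was -6.70 and -6.90 in its wild-type and mutant arrays, against -0.78 to -0.62 in the arrays of sets 2 and 3. The mean 3' minus 5' signal of 6 pairs of plant control probe sets, a sign of RNA and labelling quality, was 1.07, 3.04 and 3.22 in wild type and 1.50, 1.92 and 2.44 in the mutant, so mutant minus wild type was 0.44, -1.12 and -0.78.

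As a group the members were moderately lower. Their median difference was -0.74, or 1.67-fold, beside a median of 0.074 for all 11291 probe sets. Mean differences ran from -2.25 (4.77-fold) to -0.60 (1.52-fold). A mean difference of at most -1 was reached by 9 members, and 50 lay between -1 and -0.6, of which 19 were above -0.7. Most members lie close under the upper limit of the rule, as the plot of the differences in each set shows.

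**Figure D1:**
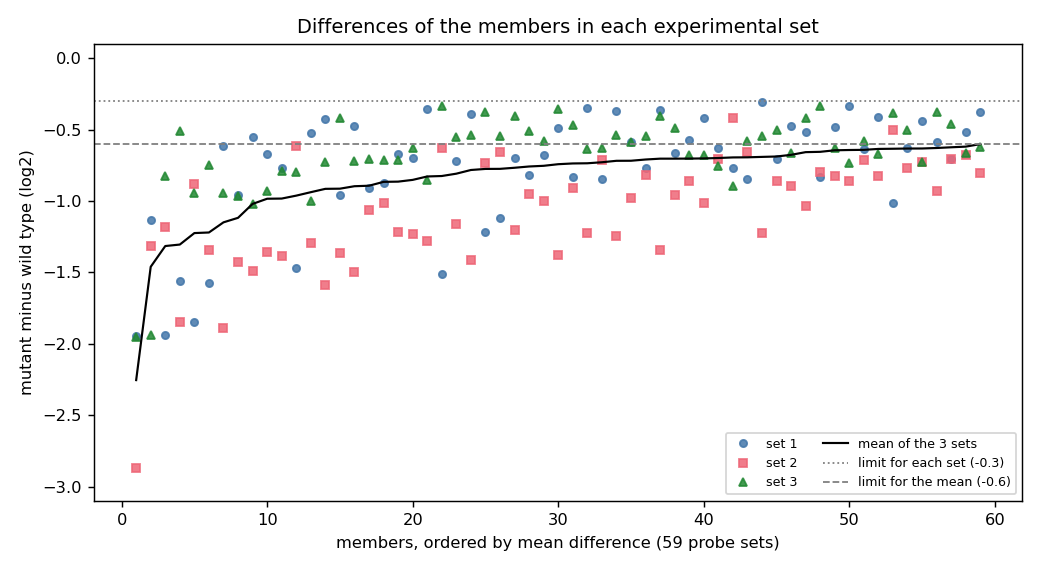
Mutant minus wild-type difference (log2, vertical axis) of each of the 59 members (horizontal axis, ordered by mean difference), with 1 symbol per experimental set and a line for the mean of the 3 sets. The dotted and dashed lines mark the limits of -0.3 for each set and -0.6 for the mean, and set 2 holds the lowest of the 3 values in 45 members.

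The set with the largest difference was set 2 in 45 members, set 1 in 11 and set 3 in 3. Median differences of the members were -0.67, -1.0 and -0.63 in sets 1 to 3. Over all 11291 probe sets the medians were 0.066, 0.062 and 0.066, and set 2 held the lowest difference in 37.6% of them, against 76.3% of the members. Set 2 also had the highest wild-type level in 38 members, beside 32.5% of the 11291 probe sets. Over the 59, median wild-type levels were 0.93, 1.72 and 1.39 in sets 1 to 3, and mutant medians were 0.36, 0.66 and 0.54. The wild-type level enters the difference that chose the members, so this pattern is a description. In set 2 the 3' minus 5' difference between the genotypes was the most negative, at -1.12, and its part in these values was not tested.

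Most members were separated by genotype as well as by pair. In 36 of the 59 all mutant arrays were below all wild-type arrays, which held for 4.3% of the 11291 probe sets, and in the other 23 the groups overlapped although each pair differed. Since the rule used the same differences, nothing is read from that count. The same holds for the calls of limma's paired fit at an adjusted p of 0.05: it called 7 members lower, beside 0.139% of 13648 probe sets called lower and 0.388% called higher. Those called were AT3G51720, AT2G17850, AT5G64550, 253480_at, 253416_at, 266965_at and 264802_at. The mirror rule, with each difference at least 0.3 and the mean at least 0.6, was met by 265 probe sets (2.35%), against 66 for the lower direction. That balance depended on the scaling. It was 95 lower and 178 higher after quantile normalization, and 151 lower and 156 higher with the division by the array median undone. With an offset added to the signals before the log it stayed uneven, at 46 lower and 214 higher.

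Members lay mostly in the lower part of the levels of the 11291 probe sets, all of which had means above 0. Wild-type means ran from 0.38 to 3.77 with a median of 1.30, and mutant means from -0.35 to 3.08 with a median of 0.53. By mean level over 6 arrays, 29 members lay below 0.80, 13 between 0.80 and 1.57, 14 between 1.57 and 2.55 and 3 above 2.55, limits that divide the 11291 probe sets into 4 equal groups. The median spread of the 3 differences was 0.31 (SD) for members and 0.24 for all 11291.

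**Figure D2:**
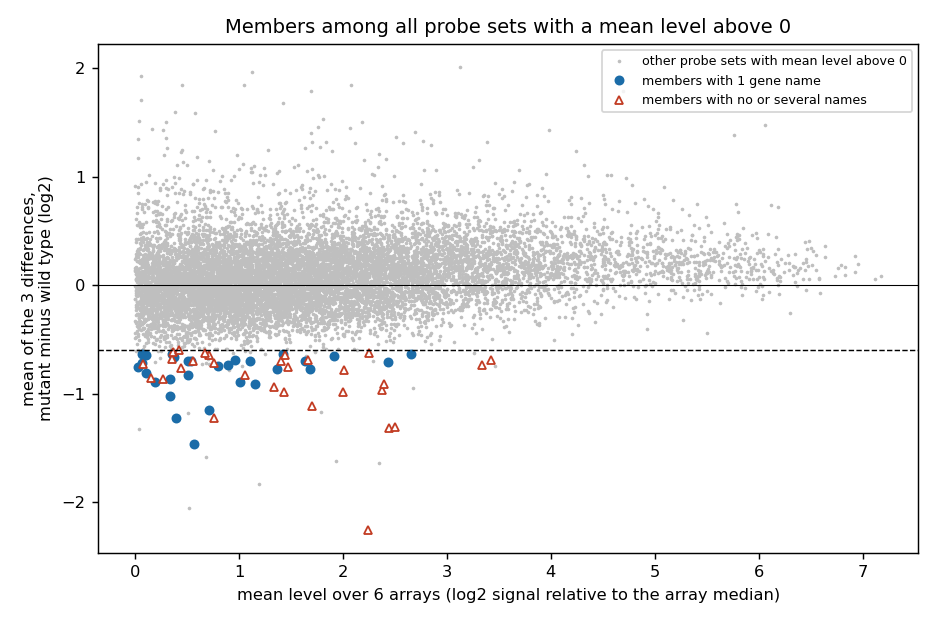
Mean of the 3 differences (mutant minus wild type, log2, vertical axis) against the mean level over 6 arrays (log2 signal relative to the array median, horizontal axis). Filled circles are the 29 members with 1 gene name, open triangles the 30 with no or several names and grey points the other probe sets with a mean level above 0, and 3 members lie above a level of 2.55.

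Names were known for 29 members with 1 gene each, 49.2% of the group and close to the 51.9% among all 11291 probe sets. Another 2 list several genes and 28 carry none in the annotation used. In the groupings below, roles are background knowledge and the grouping was made after the members were known.

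The cell wall group covers pectin-modifying enzymes and a wall acetylation gene. AT1G10640 and AT5G14650 encode proteins of the pectin lyase-like family that includes polygalacturonases, which cut pectin chains. AT1G10640 had levels of 0.54, 1.51 and 1.79 (wild type, sets 1 to 3) and of -0.075, -0.38 and 0.85 (mutant). The difference was uneven, at -0.61, -1.89 and -0.94 (mean -1.15, SD 0.66, 2.22-fold), and mutant set 3 was above wild-type set 1. AT5G14650 had 0.63, 0.45 and 0.43 in wild type and -0.083, -0.71 and -0.12 in the mutant, with no overlap (mean difference -0.81, SD 0.32). The pectate lyase family gene AT1G67750 had steady wild-type levels of 1.66, 1.85 and 1.75 and mutant levels of 0.54, 1.19 and 1.21. Its groups did not overlap, and set 1 gave its largest difference, -1.12, unlike in most members. TBL36, of the TRICHOME BIREFRINGENCE-LIKE family known for acetylating wall polysaccharides, was one of the brightest named members. Its levels were 2.55, 3.08 and 2.74 in wild type and 1.78, 2.26 and 2.19 in the mutant, a mean difference of -0.71 (SD 0.14, 1.64-fold), again without overlap.

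Cytoskeletal and chromosomal genes were represented by AT4G38950, NET1A and AT1G15940. AT4G38950 encodes a kinesin, a motor that moves along microtubules. Its levels differed far more between sets than between genotypes, at 0.086, 2.24 and 2.05 in wild type and -0.28, 0.90 and 1.64 in the mutant, so that the mean difference of -0.70 (SD 0.55) rests mostly on the -1.34 of set 2. NET1A, an actin-binding protein of the NETWORKED family, had differences of -0.52, -1.04 and -0.42 (mean -0.66). AT1G15940 encodes a protein of the PDS5 family, cofactors of the cohesin that holds sister chromatids together, and had differences of -0.42, -1.01 and -0.67 (mean -0.70). The mutant arrays of AT1G15940 lay at 0.063, 0.064 and 0.34, all below the wild-type arrays at 0.48, 1.08 and 1.02.

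No member with 1 gene name was a listed gene of the mitotic machinery. The 28 members without a name and the 2 with several were not checked, and may include listed genes. Of 31 genes of spindle, checkpoint and cytokinesis 10 had a named probe set, 6 of these had a mean level above 0 and 0 were members. Both thresholds were met by only 0.585% of all 11291 probe sets, so nothing is read from that 0. The median difference of the 6 was 0.096, beside 0.074 for all 11291 probe sets, with 2 of the 6 below 0 and 1 lower in all sets. By set the medians of the 6 differed in sign, at 0.23, -0.11 and 0.030 in sets 1 to 3. The mitotic kinase gene AUR1, for example, had differences of 0.63, -0.14 and 0.36. None of 18 mitotic cyclin and CDKB genes had a named probe set, so how they behaved was not analysed here. Limma's paired fit called 0 of the 8 tested probe sets of the spindle list in either direction, with 0 at an unadjusted p under 0.05.

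Proteases and hydrolases formed another set. BETA-VPE, a vacuolar processing enzyme that cuts precursors of vacuolar proteins, had levels of 0.33, 1.18 and 0.79 in wild type and -0.54, 0.17 and 0.080 in the mutant. The groups did not overlap, and its differences of -0.87, -1.01 and -0.71 were among the more even (SD 0.15). AT5G07030 encodes an aspartyl protease and was the brightest named member, at 3.21, 2.81 and 2.90 in wild type against 2.77, 2.08 and 2.17 in the mutant. Its mean difference of -0.63 (SD 0.16, 1.55-fold) lies just inside the rule, and every mutant array was below every wild-type array. AT5G58980, a neutral ceramidase gene of sphingolipid breakdown, had differences of -0.41, -0.82 and -0.67.

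Receptor-like kinases with leucine-rich repeats, which sense signals at the cell surface, were AT5G14210 and AT2G23950. AT5G14210 had levels of 1.56, 2.76 and 2.41 in wild type and 0.73, 1.96 and 2.07 in the mutant, so 2 mutant arrays exceeded the wild-type array of set 1. AT2G23950 was dimmer, with 0.28, 0.47 and 0.52 in wild type and -0.087, -0.78 and -0.022 in the mutant. The second gene was separated by genotype and the first by pair alone.

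Regulators included AT5G09460, a basic helix-loop-helix protein gene of the SAC51 family, whose members are known from work on xylem and stem growth. It had differences of -0.71, -0.86 and -0.50 (mean -0.69, SD 0.18), and its groups did not overlap. AT1G22160 encodes a protein with an FLZ-type zinc finger, a fold known for binding the energy-sensing kinase SnRK1. Its levels of 0.43, 1.86 and 1.50 in wild type and -0.41, 0.95 and 1.03 in the mutant overlapped across sets, with a mean difference of -0.74. AT1G72410, related to a COP1-interacting protein of light signalling, differed by -0.66, -0.96 and -0.49, and its groups did not overlap. Among the named members only AT1G72410 has a second probe set, 260447_at, which was very dim (mean level -5.66) and gave -2.31, 0.23 and 0.0047 in the 3 sets.

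The named member with the largest difference was AT3G51720, which encodes a protein of the DUF827 family, long coiled coils some of which act in chloroplast movement. Its levels were 0.47, 1.34 and 2.07 in the wild-type arrays and -0.67, 0.029 and 0.13 in the mutant arrays. The groups did not overlap, and set 3 gave the largest difference, -1.94 (mean -1.46, SD 0.42, 2.75-fold).

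AT2G17850, a gene for a rhodanese-like protein, a fold of sulfur transfer enzymes, had levels of 0.50, 2.16 and 0.35 in wild type and -1.07, 0.82 and -0.40 in the mutant. Set 2 was the highest in both genotypes by more than 1, so the groups overlapped although the differences of -1.58, -1.34 and -0.75 were large. AT3G27220, with kelch repeats, had 1.01, 1.63 and 0.86 in wild type and 0.52, 0.25 and 0.50 in the mutant. Its largest difference, -1.38, was in set 2.

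A similar dependence on the set was seen in AT4G33560, AT4G24110 and AT5G66985, for which no molecular role is given here. AT4G33560 had 1.31, 2.57 and 0.94 in wild type and 0.36, 1.21 and 0.52 in the mutant (mean difference -0.91). AT4G24110 had 0.17, 1.16 and -0.12 in wild type and -0.64, 0.21 and -0.63 in the mutant (mean -0.76). AT5G66985 had 1.93, 2.57 and 1.70 in wild type and 0.72, 1.84 and 1.32 in the mutant (mean -0.78). In each of the 3 genes set 2 was the highest set in both genotypes and the groups overlapped.

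**Figure D3:**
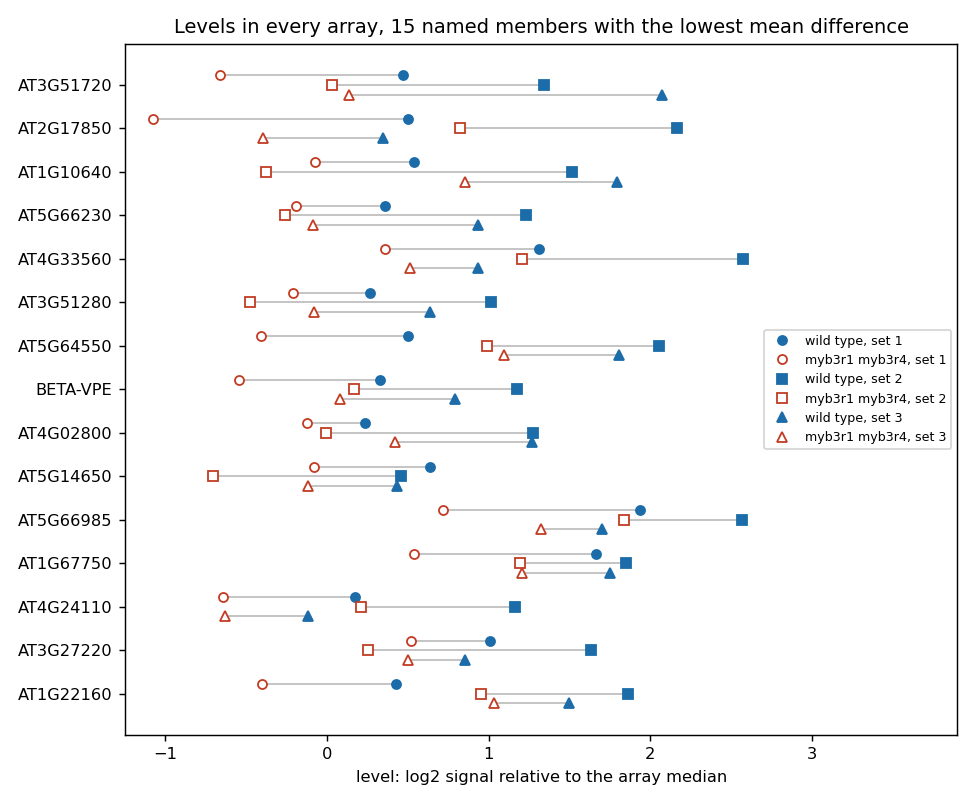
Levels (log2 signal relative to the array median, horizontal axis) of the 15 named members with the largest mean difference, with filled symbols for wild type, open symbols for myb3r1 myb3r4, 1 symbol shape per set and a grey line joining the arrays of a set. Every line runs from wild type on the right to mutant on the left, and AT2G17850 shows set 2 above the other sets in both genotypes.

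AT3G51280, AT5G66230, AT4G02800 and AT5G64550 complete the named members with the largest differences. AT3G51280, with tetratricopeptide repeats, had levels of 0.26, 1.02 and 0.64 in wild type and -0.21, -0.48 and -0.084 in the mutant (mean difference -0.90). AT5G66230 had 0.36, 1.23 and 0.94 against -0.19, -0.26 and -0.084 (mean -1.02, 2.03-fold), and neither gene's groups overlapped. The mutant arrays of both lay within a narrow range, while the wild-type arrays spread more. AT4G02800 had 0.23, 1.27 and 1.27 in wild type and -0.12, -0.0072 and 0.42 in the mutant, with mutant set 3 above wild-type set 1. AT5G64550 had 0.50, 2.05 and 1.80 against -0.41, 0.99 and 1.10. Set 1 was the lowest set in both genotypes of AT5G64550, and its differences were even, at -0.91, -1.06 and -0.71 (SD 0.18).

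The smallest spread of the 3 differences was that of AT1G15410, of the aspartate and glutamate racemase family, at -0.63, -0.71 and -0.76 (SD 0.062). Its levels were 1.49, 2.34 and 2.13 in wild type and 0.86, 1.64 and 1.37 in the mutant, so the sets differed more than the genotypes. Next came AT1G55880, a pyridoxal phosphate-dependent enzyme gene, at -0.63, -0.71 and -0.58 (SD 0.065) with wild-type levels of 0.48, 0.40 and 0.40. The largest spreads were those of the unnamed 260869_at (SD 0.70) and of AT1G10640 (SD 0.66). The thaumatin family gene AT4G36010 had a mean difference of -0.63 that rests on -1.01 in set 1, and AT1G50660 had differences of -0.63, -0.77 and -0.50.

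Several of the largest differences belong to probe sets that are unnamed here, which is not the same as having no gene. The largest of all was 253480_at, with levels of 2.79, 3.72 and 3.59 in wild type and 0.85, 0.85 and 1.64 in the mutant. Its mean difference of -2.25 (SD 0.53) is set apart from the next member at -1.46, and its groups lay more than 1 apart. Probe set 253416_at had 3.19, 3.39 and 2.71 in wild type and 1.25, 2.21 and 1.88 in the mutant, with set 1 giving the largest difference (-1.94). Probe set 260869_at had 2.94, 4.34 and 2.17 against 1.38, 2.49 and 1.66, with only -0.51 in set 3. These 2 probe sets had like mean differences, -1.32 and -1.30, but only the first was separated by genotype. Probe set 266965_at had 0.86, 2.00 and 1.26 against -0.99, 1.12 and 0.32 (mean -1.22). Probe set 264802_at had the steadiest wild-type levels of these 5, at 2.18, 2.28 and 2.33, against 1.22, 0.85 and 1.36 (mean -1.12, SD 0.27). The other 23 unnamed members had mean differences of -0.98 to -0.60 and wild-type means of 0.44 to 3.77, and in 14 of them the groups did not overlap. The 2 probe sets that list several genes, 249659_s_at and 260027_at, had mean differences of -0.94 and -0.64, both without overlap.

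At the edge of the rule the values are continuous. Just inside the limit for the mean were 246117_at, 247668_at and 264360_at at -0.60, -0.62 and -0.62, and just outside it EXPB3, AT5G22760 and AT2G03140 at -0.596, -0.593 and -0.590. Just inside the limit for each set were 260181_at, 260027_at and 267456_at, whose smallest differences were -0.31, -0.33 and -0.33. Just outside it 258293_at and AT1G60200 had smallest differences of -0.299 and -0.28, and AT4G19430 was left out with differences of -3.56, -0.91 and -0.29. In all, 28 probe sets met the limit for the mean but not for each set, and 98 the limit for each set but not for the mean.

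The rule used all 3 sets, so the choice was repeated on 2 sets at a time and read in the third, whose 2 arrays took no part in it. This is a description, with the 13 genes left out as before. Chosen on sets 1 and 3, 52 probe sets had a median difference of -0.71 in set 2, and 38 of them (73.1%) were at most -0.3 there, beside 20.3% of 11280 probe sets. Chosen on sets 1 and 2, 117 had a median of -0.34 in set 3, and 64 (54.7%) were at most -0.3, beside 9.58% of 11312. Chosen on sets 2 and 3, 201 had a median of -0.18 in set 1, and 73 (36.3%) were at most -0.3, beside 10.7% of 11310. Medians of all probe sets were 0.066 to 0.069 in the held-out sets. Differences in the set not used were thus smaller than the -0.69 to -0.77 of the choosing sets where the held-out set was 1 or 3, and about as large, -0.71 against -0.71, where it was set 2.

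**Figure D4:**
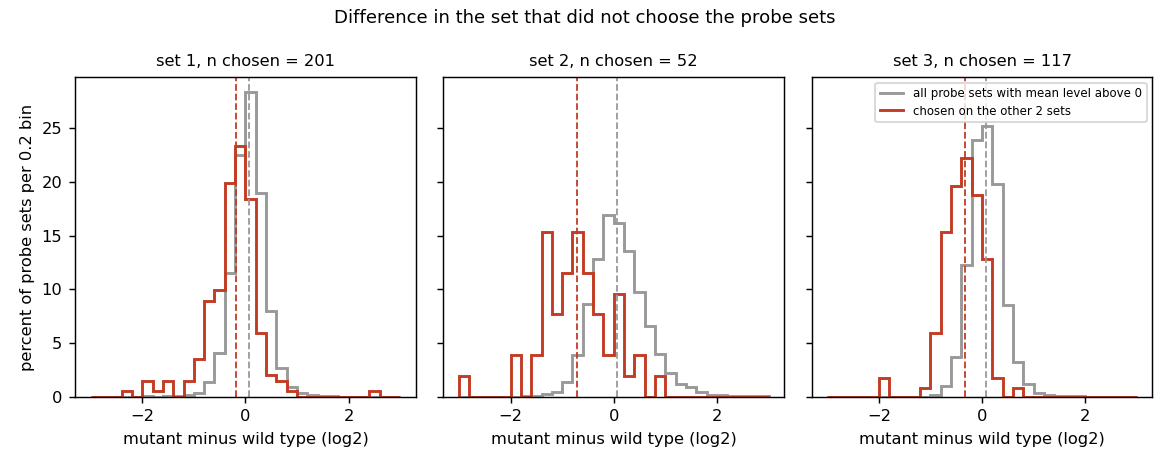
Mutant minus wild-type differences (log2, horizontal axis) in the set that took no part in the choice, as percent of probe sets per bin of 0.2 (vertical axis), for probe sets chosen on the other 2 sets (red) and for all probe sets with a mean level above 0 (grey), with dashed lines at the medians. The red medians are -0.18, -0.71 and -0.34 in sets 1 to 3 and the grey ones lie between 0.066 and 0.069.

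The members were also described by probe set suffix, chromosome and neighbouring genes. Of the 59, 55 carry the plain probe set suffix and 4 (6.78%) the suffix for probes shared between transcripts, against 3.67% of the 11291. The 29 named genes lie on all 5 nuclear chromosomes, 9, 2, 5, 5 and 8 on chromosomes 1 to 5, and in the gene order of RefSeq the closest pair, AT3G51280 and AT3G51720, is 47 protein-coding genes apart. Probe sets of the genes directly beside named members, 15 with a mean level above 0, had a median difference of 0.12 and a range of -0.36 to 0.60. Of these 15 differences, 5 were below 0.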

How the data were processed

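Signals of 6 arrays were summarised per probe set with MAS5, per the submitters' processing notes. No version is named there. The deposited values are log2 values with a median of 0 per array, so the authors divided each array by its median, as seen in the values alone; 2 raised to the values gave whole steps in 100% of those below 3000 steps (tolerance 0.02). A single value standing for a signal of 0 took its array's smallest step. Every column of the table was used. Names came from the platform annotation, updated through RefSeq's gene table (assembly TAIR10.1): of 22746 probe sets, 13513 had 1 gene, 503 several and 8730 none.

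Members and lists were chosen with earlier results of these data known. Named genes are all members with 1 gene; array values are given for the 15 with the most negative mean difference, the 5 brightest in wild type and the 5 lowest unnamed probe sets, with a few added after their values were seen. Keyword classes matched 0 members, because the tables hold no gene descriptions, and promoter motifs were not searched, since no sequence was used here.

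Limma 3.58.1 in R 4.3.3 (lmFit, eBayes with trend) was fitted to the brightest 60% of probe sets, 13648, with the set as a block, two-sided, with Benjamini-Hochberg adjustment at 0.05; it was tested on simulated data. The labels name the shared set and the design text calls the replicates paired. Deviations from genotype means of arrays in the same set correlated over probe sets by 0.67, 0.28 and 0.62. Wild-type set 2 correlated by 0.37 with mutant set 3. The number of arrays limits precision. Alternatives covered the block, filter, normalization, offset, thresholds and each set left out.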

Additional observations from a re-analysis of the deposited data

How the results depend on the processing

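The number of probe sets meeting the rule, 59, depended on its thresholds and on the scaling. It was 143 with the median division undone and 87 with quantile normalization, and all 59 members were among both. Undoing the division lowers every difference of a set by the same amount, with the level filter kept, so no member could drop out there. These scalings put the median difference of all probe sets at -0.050 and -0.0070 in place of 0.074. The mirror rule's 265 became 156 with the division undone, 178 with quantile normalization and 214 with an offset before the log. These alternatives for the mirror rule were chosen after seeing the data. With an offset of 0.25 of the median signal before the log, the number meeting the rule for lower probe sets, 59 in the main setting, was 39. With a mean level above -1 or above 1 it was 95 or 28, with a mean difference of at most -0.8 it was 23, and with each difference at most -0.5 it was 29. Leaving out 1 set gave 52 to 201: 201 without set 1, 52 without set 2 and 117 without set 3, of which 53, 33 and 53 were members. The members' median difference, -0.74, was -0.87 to -0.65 under the 3 scalings and -0.85 to -0.63 with 1 set left out. The rule, which used these values, keeps every such mean with a set left out at or below -0.3, so this shows nothing of stability. The medians in the held-out sets moved by less than the spread between sets under the 3 scalings tried, an alternative chosen after seeing the data.

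In limma, 19 probe sets were called lower and 53 higher. Without the experimental set as a block 1 was called lower and 0 higher (236 and 637 at an unadjusted p under 0.05). Without a filter on dim probe sets 7 and 7 were called, and among the brightest 40% 11 and 32. With the median division undone 33 were lower and 41 higher, 44.6% lower in place of 26.4%, and at an unadjusted p under 0.05 the balance turned from 657 lower and 1717 higher to 1554 and 861. Leaving out 1 set gave 25 to 189 lower and 82 to 918 higher: 189 and 918 without set 1, 25 and 82 without set 2, and 44 and 163 without set 3. The causes were not tested. The motif search and its forward-strand alternative were not run. Dim signals limit the smaller differences.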

Other observations

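After the names of the members were known, 5 of them were noticed to be genes known for rising when oxygen is low: AT2G17850, AT3G27220, AT4G24110, AT4G33560 and AT5G66985. A list of 50 such genes was then written from general knowledge, so it gets no test. AT1G22160 stood in a first draft of the list and was taken out because its place there was unsure. Of these, 29 had a named probe set and 20 had a mean level above 0. Differences were below 0 in 15 of the 20 and below 0 in every set in 11, which held for 14.9% of all 11291 probe sets. The 5 members are in both counts, and the rule fixed their direction. The median of the 20 was -0.40, beside 0.074 for all probe sets. Without the 5 members, 10 of 15 were below 0 and the median was -0.31, and 6 were lower in every set, beside the same 14.9%. AT4G27450 had levels of 3.10, 4.01 and 2.87 in wild type and 2.82, 3.43 and 2.15 in the mutant, and AT1G26270 had differences of -0.40, -0.63 and -0.37. CML38, which encodes a calmodulin-like protein, had differences of -0.27, -0.71 and -0.42.

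Among the 9 listed probe sets with a mean level at or below 0, 4 were lower in every set. No share over all probe sets at or below 0 is given here, so nothing is read from that count. AT5G10040 had differences of -1.64, -0.73 and -1.02, AT3G29970 of -2.21, -0.55 and -0.76, AT1G19530 of -0.92, -0.90 and -1.86, and AT3G10040, a transcription factor gene that dampens the low-oxygen response, of -0.77, -1.49 and -0.058. In the same dim group AT5G04120 was higher in every set, by 1.09, 0.62 and 1.21, and AT5G45960 had 1.78, 0.15 and -0.29. Not all listed genes were lower. PDC2, a pyruvate decarboxylase gene of fermentation, had -0.36, 0.87 and 0.18, and AT1G72940 and AT1G10140 were higher in every set, with mean differences of 0.49 and 0.51, as was AT3G23170 at 0.037. Limma's paired fit called 1 of the 26 tested probe sets of the list lower, the member AT2G17850.

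Wild-type levels were highest in set 2 for 15 of the 20, beside 32.5% of all probe sets. The 20 include the 5 members, here and in the medians below. The wild-type level enters the difference that chose those members, so these values are a description. The medians of the 20 differences were -0.43, -0.61 and -0.21 in sets 1 to 3. The part of the 3' minus 5' control signal, given above for each set, was not tested. The median was -0.46, -0.34 and -0.40 without set 1, set 2 and set 3, -0.43 after quantile normalization and -0.52 on the scale before division by the median, alternatives chosen after seeing the data.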
